A study of Arabidopsis thaliana with 11 samples.

Results

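The genomic positions of ACD21-FLAG were compared with those of MBD6-RFP in wild type plants, by chromatin immunoprecipitation and sequencing of Arabidopsis thaliana inflorescences. The members were chosen by their transgene: 2 ACD21-FLAG libraries and 2 MBD6-RFP libraries, 4 of the 11 libraries of the series, holding 15081 of the 36079 regions in its 8 peak lists. ACD21-FLAG plants carried the transgene ACD21.4-3XFLAG, and MBD6-RFP plants carried MBD6 fused to a red fluorescent protein. Both were Col0 plants of wild type genotype at their other loci, kept under a day of 16 h light and 8 h dark, and chromatin was fixed with 1% formaldehyde. The sources used here do not give the promoter of either transgene or the number of plant lines behind the replicates. All FLAG libraries were batch 1 and all RFP libraries batch 2, so protein, tag and batch cannot be told apart. The antibody label names anti-FLAG M2 for the RFP libraries as well. For these reasons only positions were compared: which sites of one protein held the other, how far apart their summits lay, and in what sequence and part of the chromosome they lay.

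MBD6 belongs to the methyl-CG-binding domain proteins, which recognise cytosine methylation in CG dinucleotides. In plants CG methylation covers transposons and repeats, and it also lies in the bodies of many active genes. ACD21 is a small protein with an alpha-crystallin domain, the fold of the small heat shock proteins, and with ACD15 and the J-domain protein SLN it belongs to the complex of MBD5 and MBD6, which silences methylated genes and transposons.

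To show the kinds of sequence that each protein sat on, the 200 bases around the strongest summit are given for the highest-ranking sites of 3 classes, with each CG dinucleotide in capitals (plus strand, TAIR10.1 RefSeq assembly, windows free of annotated UTRs). The 1st pair lay in regions of all 4 libraries, at chr1:6455404-6455603 near MYB47, a MYB transcription factor gene, and at chr5:13632680-13632879 upstream of SOS2, a protein kinase gene of the salt tolerance pathway.
MYB47: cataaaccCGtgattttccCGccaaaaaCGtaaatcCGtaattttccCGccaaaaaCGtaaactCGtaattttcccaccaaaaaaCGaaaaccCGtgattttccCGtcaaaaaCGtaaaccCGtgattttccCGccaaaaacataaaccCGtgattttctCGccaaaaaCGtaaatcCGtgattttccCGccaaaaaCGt
SOS2: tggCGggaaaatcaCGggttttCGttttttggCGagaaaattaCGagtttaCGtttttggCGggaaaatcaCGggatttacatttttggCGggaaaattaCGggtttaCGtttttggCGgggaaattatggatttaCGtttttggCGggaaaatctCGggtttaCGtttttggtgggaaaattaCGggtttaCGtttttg
The 2nd pair lay in both ACD21 lists and in neither MBD6 list, at chr1:16902754-16902953 upstream of AT1G44760, annotated as adenine nucleotide alpha hydrolase-like, and at chr5:8588856-8589055 upstream of COL4, a CONSTANS-like zinc finger gene.
AT1G44760: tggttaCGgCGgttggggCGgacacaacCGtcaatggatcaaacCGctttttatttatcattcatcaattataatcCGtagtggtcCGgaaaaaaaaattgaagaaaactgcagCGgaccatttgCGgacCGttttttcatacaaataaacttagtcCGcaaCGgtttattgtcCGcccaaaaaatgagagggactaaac
COL4: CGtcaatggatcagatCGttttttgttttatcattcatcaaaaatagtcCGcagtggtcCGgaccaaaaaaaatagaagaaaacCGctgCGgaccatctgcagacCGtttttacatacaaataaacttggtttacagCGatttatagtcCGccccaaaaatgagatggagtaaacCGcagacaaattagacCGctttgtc
The 3rd pair lay in MBD6 lists and in neither ACD21 list, at chr5:14153640-14153839 in the pseudogene AT5G36010 and at chr3:16353685-16353884 beyond the end of AT3G44805, a TRAF-like gene.
AT5G36010: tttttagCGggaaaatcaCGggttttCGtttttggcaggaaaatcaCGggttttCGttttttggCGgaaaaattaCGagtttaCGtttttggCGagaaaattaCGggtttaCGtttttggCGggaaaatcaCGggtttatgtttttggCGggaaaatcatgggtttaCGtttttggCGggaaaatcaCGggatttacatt
AT3G44805: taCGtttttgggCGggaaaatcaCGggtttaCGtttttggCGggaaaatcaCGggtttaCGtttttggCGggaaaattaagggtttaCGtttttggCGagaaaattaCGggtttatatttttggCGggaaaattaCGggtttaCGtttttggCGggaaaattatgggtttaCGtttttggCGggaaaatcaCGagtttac
The 200 bases held 19 and 18 CG sites in the 1st pair, 13 and 11 in the 2nd, and 17 and 18 in the 3rd. The word CCGCCAAAAA, counted on both strands in the 500 bp around the summit, had 7 copies at MYB47, 11 at SOS2, 13 at AT5G36010 and 9 at AT3G44805, and none at AT1G44760 or COL4. The windows of AT1G44760 and COL4 share other stretches, such as cgtcaatggatca and catacaaataaactt in the same order. They are therefore not separate examples of sequence. In both ACD21 lists a peak number is missing at AT5G36010 and AT3G44805, so the absence of ACD21 there is not shown. A number of MBD6 replicate 1 is missing at AT1G44760 and COL4, so the absence of MBD6 there is not shown either.

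Peak lists hold no read counts, so the depth of each library is unknown, and a region missing from a list was not called there. The FLAG lists, whose names say that peaks of the Col0 control were taken out, had a lowest -log10 q of 2.00 and 2.099. The RFP lists, whose names say that hyper-ChIPable regions were taken out, had one of 1.39 and 1.46. Gaps in the numbering of the peaks show how many are missing and between which entries, but not the positions of the missing peaks. The ACD21 lists kept 96.7% and 98.7% of their peak numbers, and the MBD6 lists kept 53.0% and 96.5%, so 3096 peaks are missing from MBD6 replicate 1. The 2 MBD6 lists shared few sites: 4.78% of the regions of replicate 1 and 13.7% of those of replicate 2 overlapped the other. Of the 1073 regions of MBD6 replicate 2 that were absent from replicate 1, 1066 (99.3%) lay between entries of replicate 1 with a missing number. Between neighbouring replicate 1 entries 1 to 30 kb apart, a number was missing in 264 of 268 intervals that held a replicate 2 region, and in 586 of 1880 that held none (31.2%). The ACD21 lists were nested, with 99.0% of replicate 2 regions in replicate 1.

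ACD21 regions were fewer in CG sites, lower in GC content and more often in gene-rich parts of the chromosomes than MBD6 regions, with no overlap between the libraries of the 2 proteins. GC content in the 500 bp around the summits averaged 34.6% and 34.1% in the ACD21 libraries, and 38.5% and 46.9% in the MBD6 libraries, where the genome has 36.0%. The same windows held on average 16.1 and 16.9 CG sites in ACD21, and 18.8 and 30.2 in MBD6, where the genome has 11.7 per 500 bp. Both proteins therefore lay on more CG sites than the genome average, with a GC content below that of the genome in ACD21 and above it in MBD6.

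Gene-poor zones were 100 kb bins in which exons of protein-coding genes covered less than 20% of the sequence. They make up 16.8% of the 1193 bins. They held 26.5% and 23.2% of the ACD21 regions, and 43.6% and 54.7% of the MBD6 regions. Pseudogenes, a class that takes in transposon genes here, held 10.7% and 7.59% of ACD21 region centres, and 24.9% and 42.4% of MBD6 region centres. Promoters, the 1 kb before a protein-coding gene, held 24.2% and 29.04% of ACD21 centres, and 15.1% and 10.2% of MBD6 centres. Protein-coding gene bodies held 17.1% and 14.3% of ACD21 centres, and 14.5% and 12.7% of MBD6 centres, so these shares overlapped. Median region width was 367 and 339 bp in ACD21, and 635 and 363 bp in MBD6. All but the gene body share and the width separated both libraries of one protein from both of the other, as the plot of features by library shows.

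**Figure D1:**
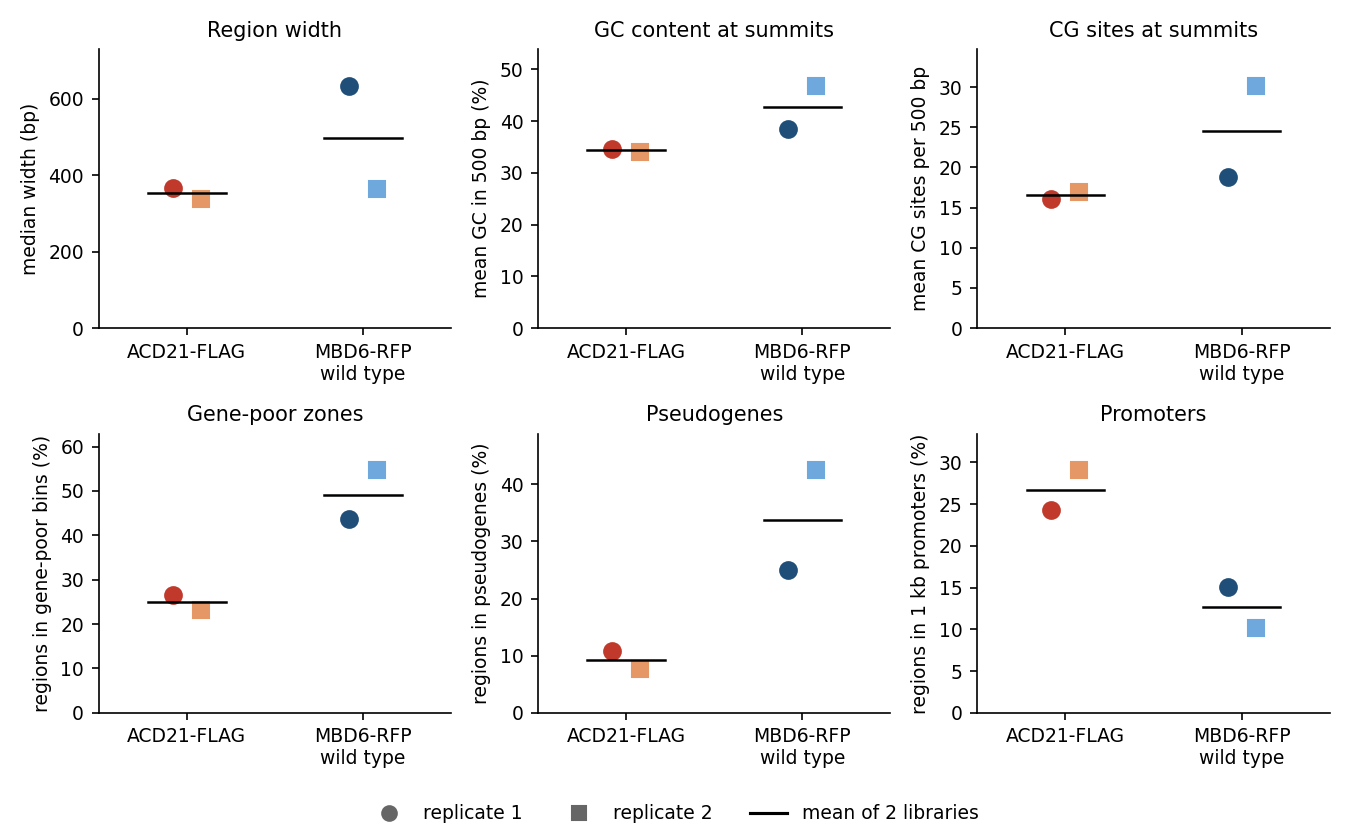
Features of the 4 peak lists: median region width in bp, mean GC percent and mean CG sites in 500 bp summit windows, and the percent of regions in gene-poor bins, pseudogenes and 1 kb promoters. Points are single libraries (circle, replicate 1, and square, replicate 2), and bars are the means of 2 libraries. ACD21-FLAG lies at 26.5% and 23.2% in gene-poor bins, and MBD6-RFP at 43.6% and 54.7%.

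On group means, GC content was 34.4% ± 0.384 in ACD21 and 42.7% ± 5.94 in MBD6 (SD, n = 2 each), a difference of -8.31 percentage points. CG sites averaged 16.5 ± 0.540 in ACD21 and 24.5 ± 8.07 in MBD6, a difference of -7.97 per window. The gene-poor share averaged 24.9% ± 2.31 in ACD21 and 49.2% ± 7.79 in MBD6, a difference of -24.3 points. The promoter share averaged 26.6% ± 3.40 in ACD21 and 12.7% ± 3.45 in MBD6, a difference of 14.0 points. Each had a two-sided exact permutation p of 0.333, the smallest that 2 against 2 libraries can give, and 0.444 after Benjamini-Hochberg adjustment over 8 comparisons. The width difference of -146 bp and the gene body difference of 2.1003 points each had an exact permutation p of 0.667. The GC and CG differences rest largely on MBD6 replicate 2: without it they were -4.11 and -2.26, and without MBD6 replicate 1 they were -12.5 and -13.7. Over whole regions in place of summit windows the CG difference was -6.38 and the libraries of the 2 proteins overlapped (exact permutation p = 1). No comparison of the groups could pass 0.05 in this design.

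Overlap by at least 1 bp with a region of the other protein was rarer in ACD21 than in MBD6 regions with the full lists. It was more frequent in ACD21 regions with the 1000 highest regions of each list. An MBD6 region of either replicate was held by 2607 of 6774 ACD21 regions in replicate 1 (38.5%, 95% exact binomial interval over regions 37.3 to 39.7) and by 1775 of 3571 in replicate 2 (49.7%, 48.1 to 51.4). An ACD21 region of either replicate was held by 1849 of 3492 MBD6 regions in replicate 1 (52.9%, 51.3 to 54.6) and by 884 of 1244 in replicate 2 (71.1%, 68.5 to 73.6). The MBD6 lists cover 2.21% and 0.455% of the genome and the ACD21 lists 2.64% and 1.27%. Over libraries the mean was 44.1% ± 7.93 for ACD21 and 62.0% ± 12.8 for MBD6 (SD, n = 2 each). With the 1000 highest regions of each list the order turned, at 60.65% of ACD21 and 38.4% of MBD6 regions. Those lists were equal in length only singly, and a region in either list of the other protein counted. The full ACD21 lists were nested, while the full MBD6 lists shared few sites. The 2 shares were therefore not matched for the number of distinct regions of the other protein.

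Held by both replicates of the other protein were 2.11% and 3.81% of ACD21 regions, and 36.4% and 46.6% of MBD6 regions. Of the ACD21 regions without MBD6 replicate 1, 75.1% in replicate 1 and 77.2% in replicate 2 lay where a peak number of that MBD6 list is missing. For those regions the absence of MBD6 replicate 1 is not shown, and 38.5% and 49.7% are shares of the peaks that were kept.

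Where regions of both proteins overlapped, the medians of the distances between their strongest summits were 31.5 to 41 bp. The median distance from an ACD21 summit to the MBD6 summit was 41 and 35 bp for ACD21 replicate 1, to MBD6 replicates 1 and 2, and 39 and 31.5 bp for ACD21 replicate 2. Taken from the MBD6 lists the medians were 33 to 38 bp. Between the 2 ACD21 replicates it was 15 and 16 bp, and between the 2 MBD6 replicates 30 and 31 bp, depending on the list it was taken from. Summits of the 2 proteins were thus farther apart than those of ACD21 replicates, and close to the distance between MBD6 replicates. Within 100 bp lay 73.1% to 80.5% of the ACD21 to MBD6 distances, 93.6% of those from ACD21 replicate 1 to ACD21 replicate 2 and 88.6% of those from MBD6 replicate 1 to MBD6 replicate 2. The mean of the medians was 36.4 bp between the proteins and 23 bp within them, a difference of 13.4 bp (one-sided exact permutation p = 0.333, the smallest possible, adjusted p = 0.444). More than 1 summit was listed for 18.8% and 15.2% of ACD21 regions and for 0% of the regions in both MBD6 lists. With every listed summit in place of the strongest the difference was 19.75 bp. The part of the unlike summit listing in the distances was not tested.

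**Figure D2:**
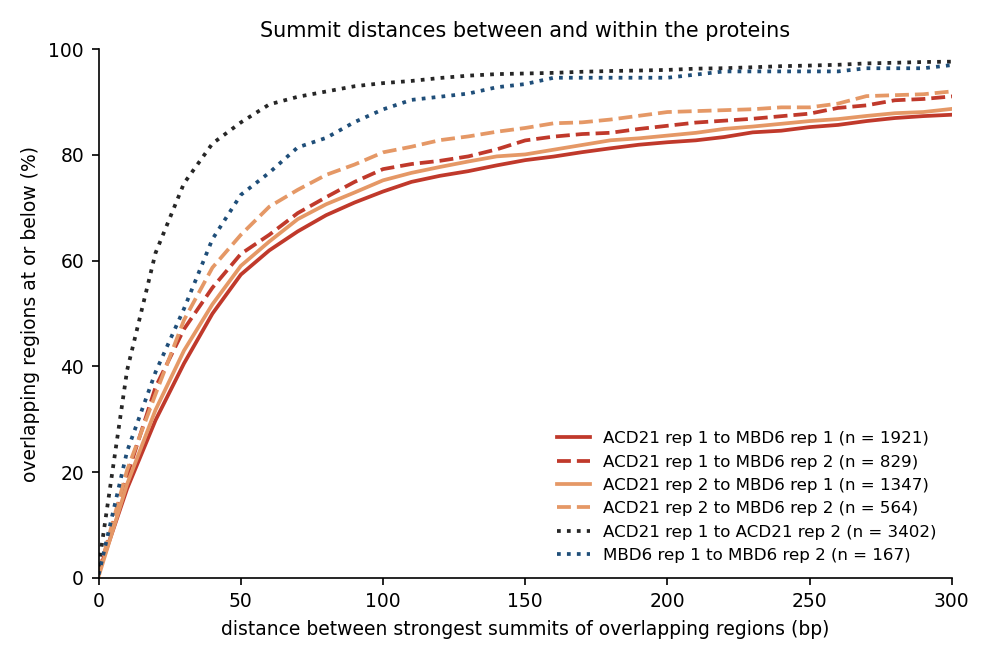
Cumulative percent of overlapping regions (vertical axis) whose strongest summits lie within a distance in bp (horizontal axis), for pairs of lists. The curves between ACD21-FLAG and MBD6-RFP (medians 31.5 to 41 bp) lie to the right of the ACD21 replicates (15 bp), and the MBD6 replicates (30 bp) meet them at short distances.

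The overlap in bases, as the Jaccard index (bases in both lists over bases in either), was 0.197 and 0.105 for ACD21 replicate 1 with MBD6 replicates 1 and 2, and 0.170 and 0.127 for ACD21 replicate 2. It was 0.470 for the ACD21 replicates and 0.0229 for the MBD6 replicates. Every ACD21 list thus had a higher index with each MBD6 list than the MBD6 lists had with each other. The index of the MBD6 replicates is one of the peaks that were kept. Of the 1073 replicate 2 regions absent from MBD6 replicate 1, 1066 lay where a number of replicate 1 is missing. How close the MBD6 replicates were before that removal is not shown. The mean between the proteins minus the mean within them was -0.0964 (one-sided exact permutation p = 0.333, adjusted p = 0.444). It rests on the ACD21 replicates, since without ACD21 replicate 1 it was 0.126 and without ACD21 replicate 2 it was 0.128.

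ACD21 regions with more CG sites held MBD6 replicate 2 more often, and MBD6 replicate 1 did not follow that order. Of ACD21 replicate 1 regions with 0 to 9 CG sites in 500 bp, 4 of 1377 (0.290%) held MBD6 replicate 2, against 149 of 3609 (4.13%) with 10 to 19, 280 of 1237 (22.6%) with 20 to 29 and 268 of 419 (64.0%) with 30 to 39. Of those with 40 or more, 128 of 132 (97.0%, 95% interval 92.4 to 99.2) held it. ACD21 replicate 2 regions followed the same order, with 4 of 529 (0.756%) in the lowest class and 84 of 87 (96.6%) in the highest. The shares increased at every step in both ACD21 lists.

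MBD6 replicate 1 showed no such course. It was held by 13.4%, 32.3%, 37.0%, 21.7% and 18.2% of ACD21 replicate 1 regions over the same 5 classes, and by 22.7%, 40.4%, 42.1%, 39.9% and 25.3% of ACD21 replicate 2 regions. In this MBD6 list the peak numbers are missing most where CG sites are dense: of the ACD21 replicate 1 regions without it, 65.4% lay beside a missing number in the lowest CG class and 108 of 108 in the highest. The part of the removed peaks in the lower shares was not tested.

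**Figure D3:**
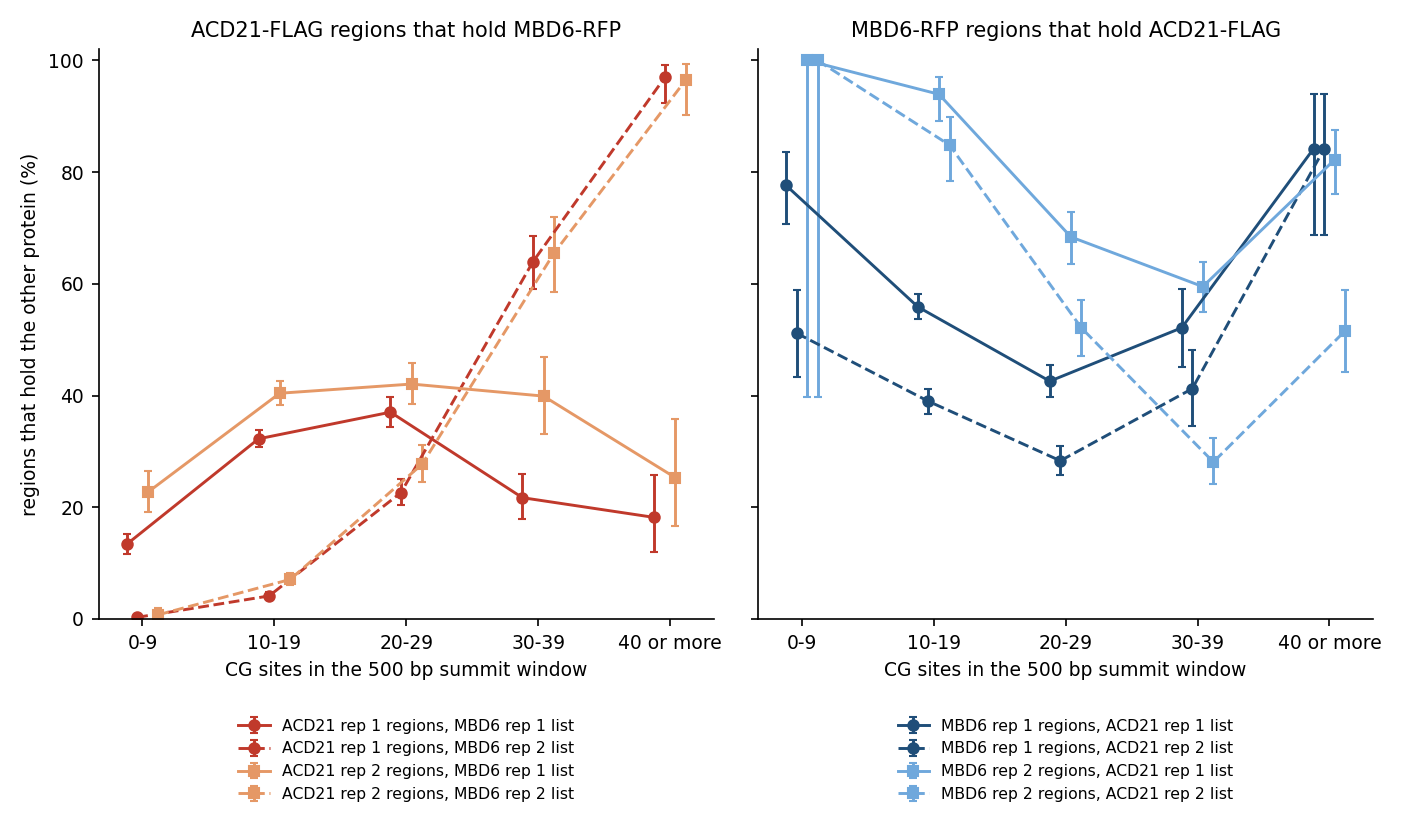
Percent of regions that hold the other protein (vertical axis, with 95% exact binomial intervals over regions) by the number of CG sites in the 500 bp summit window (horizontal axis), for each pair of lists, with ACD21-FLAG regions on the left and MBD6-RFP regions on the right. Solid lines use replicate 1 of the other protein and dashed lines replicate 2. ACD21 regions with 40 or more CG sites held MBD6 replicate 2 in 97.0% and 96.6%, and MBD6 replicate 1 in 18.2% and 25.3%.

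Seen from MBD6, the share that held ACD21 was lowest at intermediate CG density. MBD6 replicate 1 regions held ACD21 in 77.6%, 56.04%, 42.8%, 54.0% and 86.8% over the 5 CG classes, the last of 38 regions. For MBD6 replicate 2 the shares were 94.5% with 10 to 19 CG sites, 68.9% with 20 to 29, 60.1% with 30 to 39 and 82.8% with 40 or more, and its lowest class held only 4 regions. In both MBD6 lists a class in the middle of the range had the lowest share.

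Sites of MBD6 in gene-rich bins held ACD21 more often than those in gene-poor bins in both libraries. In MBD6 replicate 1, 70.6% of the 1968 gene-rich regions held ACD21 (95% interval 68.5 to 72.6), and 30.2% of the 1524 gene-poor regions did (27.9 to 32.6). In MBD6 replicate 2, 89.2% of 564 gene-rich regions held it (86.3 to 91.6), and 56.03% of 680 gene-poor regions did (52.2 to 59.8). The mean difference was 36.8 percentage points. In ACD21 regions 36.2% of gene-rich and 44.8% of gene-poor regions held MBD6 of either replicate in replicate 1, and 49.0% and 52.0% did in replicate 2. That order rests on MBD6 replicate 2. ACD21 regions with MBD6 replicate 2 were in gene-poor bins more often than those without it, by 20.4 and 7.77 percentage points, and for MBD6 replicate 1 the differences were -2.42 and -2.16.

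The share that held the other protein was higher at the top of the score rank within a list than at its bottom. Among the 20% of regions with the lowest score in MBD6 replicate 1, 19.1% held ACD21 replicate 1, and among the 20% with the highest score 94.3% did. In MBD6 replicate 2 these shares were 46.0% and 94.0%. In ACD21 replicate 1 the same classes held MBD6 of either replicate in 27.3% and 66.7%, and for ACD21 replicate 2 these were 35.4% and 78.6%. Since gene-poor MBD6 regions rank lower, the zones were compared within 3 equal classes of the rank. In the lowest class of MBD6 replicate 1, 42.0% of gene-rich and 10.1% of gene-poor regions held ACD21, and in the highest 93.8% and 73.0% did. In MBD6 replicate 2 the shares were 75.9% and 39.4% in the lowest class, and 95.6% and 83.6% in the highest. The gene-rich share was above the gene-poor share in all 6 classes of the MBD6 lists, with intervals that did not overlap. In the ACD21 lists the gene-poor share was the higher one in the lowest class, with 20.5% of gene-rich and 39.5% of gene-poor regions in replicate 1 and 33.4% and 47.6% in replicate 2. In the middle class the shares were 28.2% and 41.9% in replicate 1, and 42.5% and 41.5% in replicate 2. In the highest class 57.3% of gene-rich and 56.05% of gene-poor regions held MBD6 in replicate 1, and 70.0% and 68.8% in replicate 2, with intervals that did overlap. The deposited MBD5 and MBD6 list, described below, held 85.8% of gene-rich and 40.7% of gene-poor MBD6 replicate 1 regions in the lowest class. In the middle class it held 96.8% and 79.1%, and in the highest 98.2% and 98.8%. In MBD6 replicate 2 it held 89.4% and 94.9% in the lowest class. Whether the 2 zones hold comparable MBD6 sites was not tested.

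**Figure D4:**
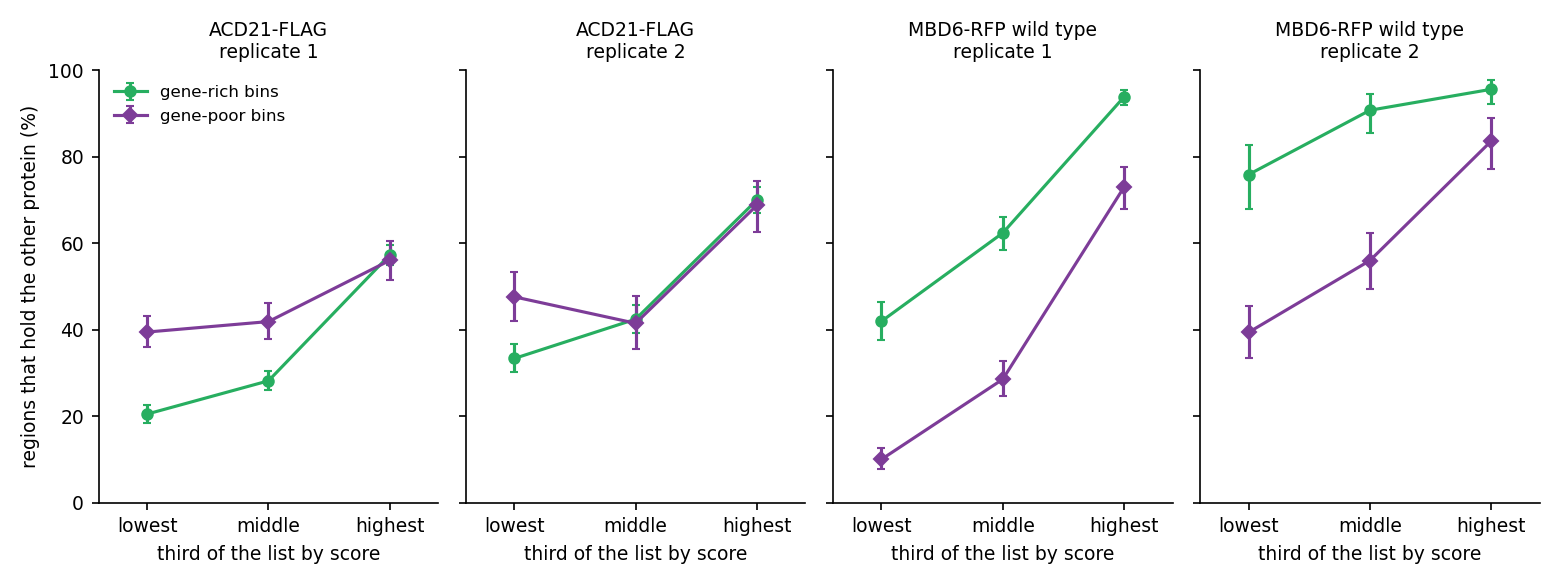
Percent of regions that hold the other protein in either replicate (vertical axis, with 95% exact binomial intervals over regions) by class of the list's score rank, 3 classes of equal size (horizontal axis), in gene-rich and gene-poor 100 kb bins, with the ACD21-FLAG libraries on the left and the MBD6-RFP libraries on the right. In MBD6 replicate 1 the lowest class holds ACD21 in 42.0% of gene-rich and 10.1% of gene-poor regions.

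Gene context showed the same contrast. MBD6 regions centred in promoters held ACD21 in 448 of 527 cases in replicate 1 (85.0%) and 121 of 127 in replicate 2 (95.3%). Those centred in pseudogenes did so in 161 of 870 (18.5%) and 304 of 528 (57.6%), and those in gene bodies in 56.2% and 77.2%. Of the ACD21 regions in pseudogenes 57.1% and 66.8% held MBD6 of either replicate, against 35.2% and 47.7% of those in promoters. This order, too, rests on MBD6 replicate 2. ACD21 regions with MBD6 replicate 1 were in pseudogenes in 7.76% and 4.83%, against 11.9% and 9.26% of those without it, and in promoters in 25.9% and 31.3%, against 23.6% and 27.7%.

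MBD6 regions with ACD21 were wider, higher in rank and poorer in GC than MBD6 regions without it. Their median width was 702 bp with ACD21 and 567 bp without in replicate 1, and 392.5 bp with and 314 bp without in replicate 2. GC content was 35.4% with and 42.0% without in replicate 1, and 45.5% with and 50.2% without in replicate 2. ACD21 regions with MBD6 were also wider, with 455 bp against 327 bp in replicate 1 and 393 bp against 301 bp in replicate 2, and richer in GC, with 37.6% against 32.8% and 36.1% against 32.1%. The GC order holds for MBD6 replicate 2 and turns for MBD6 replicate 1, with 34.3% against 34.7% in ACD21 replicate 1 and 33.4% against 34.5% in replicate 2. They held 20.3 CG sites with MBD6 and 13.5 without in replicate 1, and 19.8 and 14.0 in replicate 2. That CG difference averaged 6.23 sites over both ACD21 libraries and rests on MBD6 replicate 2: it was 1.03 against MBD6 replicate 1 alone and 13.7 against MBD6 replicate 2 alone.

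The lists of ACD15-FLAG, the other alpha-crystallin domain protein of the series and of the same batch and tag as ACD21, held more of the MBD6 regions with ACD21 than of those without. MBD6 replicate 1 regions with ACD21 held ACD15 in 83.2% (replicate 1) and 97.7% (replicate 2), and those without ACD21 in 4.56% and 30.1%. For MBD6 replicate 2 the shares were 55.5% and 97.1% with ACD21, and 0.556% and 50% without. The ACD15 lists had 5661 regions in replicate 1 and 10946 in replicate 2. A deposited list named for MBD5 and MBD6, of 10534 nuclear regions, held 97.7% and 98.5% of the ACD21 regions. It held 82.3% and 94.5% of the MBD6 regions. The sources used here do not give its libraries. The part of the genome that these lists cover is not given here, so the shares have no expected level beside them. ACD21 regions without MBD6-RFP were in the MBD5 and MBD6 list at 97.3%, against 98.4% with it, in replicate 1. In replicate 2 these were 98.6% and 98.4%. Seen from MBD6 the contrast was larger. MBD6 regions without ACD21 were in that list at 63.9%, against 98.7% with ACD21, in replicate 1. In replicate 2 these were 88.1% and 97.2%.

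MBD6-RFP was also mapped in acd15 acd21 double mutants, of the same batch and tag. The mutant lists differed in size, with 3987 regions in replicate 1 and 404 in replicate 2. The mutant list of the same replicate number held 48.8% of the MBD6 replicate 1 regions with ACD21, and 58.2% of those without ACD21. In replicate 2 it held 21.7% with ACD21 and 28.3% without. The replicate numbers do not pair the libraries, and the other pairing gave another order for MBD6 replicate 2, with 18.7% of its regions with ACD21 and 8.06% of those without in mutant replicate 1. Mutant replicate 2 held 0.325% of MBD6 replicate 1 regions with ACD21 and 0.548% of those without. Within same-numbered lists the order was the same in each of 3 classes of the rank: in replicate 1, 10.3%, 28.9% and 69.8% with ACD21, from the lowest to the highest class, and 46.0%, 68.9% and 88.7% without. In replicate 2 the intervals of the 3 classes were 13.2 to 24.0, 13.3 to 22.3 and 22.6 to 31.8 percent with ACD21, and 20.1 to 32.7, 18.0 to 34.1 and 33.4 to 66.6 without, so they were apart in the highest class only. Each comparison rests on 1 mutant and 1 wild type list and has no test. Missing peak numbers were not looked up in the mutant lists, so a region absent from them is not shown to lack MBD6.

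Joined over the 4 lists, the regions formed 8679 sites. Of these 132 held all 4 libraries, 1553 held both ACD21 replicates and exactly 1 MBD6 replicate, and 1672 held both ACD21 replicates and no MBD6. A further 1983 held MBD6 and no ACD21, of which 18 had both MBD6 replicates. The 132 sites had a median width of 1418 bp and averaged 29.1 CG sites in 500 bp, the ACD21 sites without MBD6 had 446 bp and 13.9, and the MBD6 sites without ACD21 had 528 bp and 21.6. In gene-poor bins lay 23.5% of the 132 sites, 21.4% of the ACD21 sites without MBD6 and 68.0% of the MBD6 sites without ACD21. Pseudogenes held 13.6%, 5.20% and 46.6% of the 3 classes, in the same order.

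Short words repeated at the highest sites of all 4 libraries were counted next. Words of 10 letters were ranked by their copies, on both strands, in the 500 bp windows of the 8 highest of these sites, and the 20 with the most copies were taken from a ranking of all words and from one of words with at least 50% G and C, 28 in all. The words, and the condition on G and C, were settled after the sequences and earlier results had been seen, several other words had been tried, and the 28 overlap each other, so they are no independent measures. Over the 28 words, 14.5% to 52.4% of the other 124 sites of all 4 libraries held a given word (median 37.5%), against 0.0688% to 0.503% of the 238291 windows of 500 bp across the genome (median 0.182%). Between 0.202% and 0.807% of the MBD6 sites without ACD21 held it (median 0.303%). In ACD21 sites without MBD6 the share depended on the word, at 0.0598% to 8.97% (median 0.748%).

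With the 8 sites that gave the words left out, MBD6 regions with a word held ACD21 more often than MBD6 regions without it for each of the 28 words in both libraries. The share that held ACD21 was 80% to 96.8% with the word and 50.6% to 52.6% without it in replicate 1, and 90% to 95.7% with and 69.2% to 70.5% without in replicate 2. A word was in 25 to 174 regions of replicate 1 and in 23 to 82 of replicate 2, and the words still come from sites that hold both proteins, so this is a description with no test. Regions with and without a word were not matched for score rank, and the share that held ACD21 was also higher at the top of the rank. The reverse contrast varied with the word: in ACD21 regions, the share that held MBD6 was higher with the word by 0.115 to 55.7 percentage points in replicate 1 (median 40.8), and the difference ran from -4.77 to 45.3 in replicate 2 (median 34.5). The word CCGCCAAAAA, first in the ranking of words rich in G and C with 84 copies, gave the lowest value in both ACD21 libraries, and the other 27 words gave positive differences. Repeats can take up reads from several places, and the sources used here do not say how such reads were treated.

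**Figure D5:**
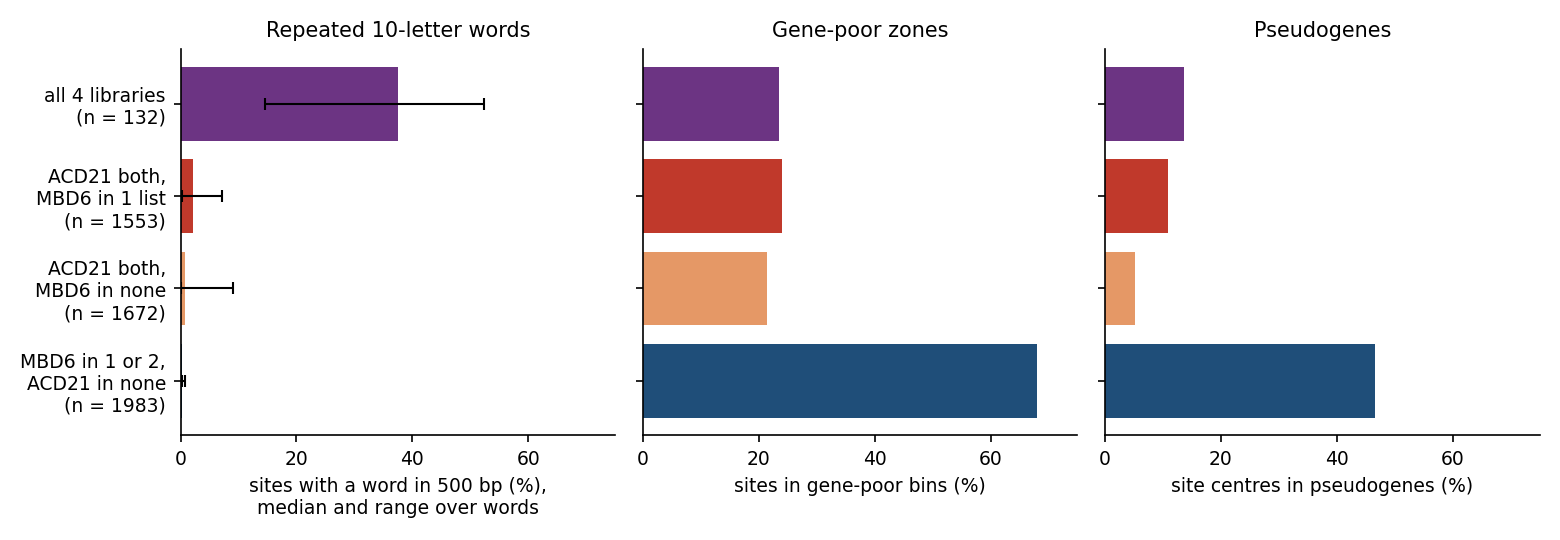
Percent of sites with a repeated 10-letter word in the 500 bp summit window (bars are medians over 28 words and lines their range, with the 8 sites that gave the words left out), in gene-poor bins and in pseudogenes, for 4 classes of sites by the libraries that hold them. The median is 37.5% in sites of all 4 libraries and 0.303% in MBD6 sites without ACD21, while gene-poor bins hold 23.5% and 68.0% of these classes.

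The 8 highest sites of all 4 libraries each held 7 to 12 copies of CCGCCAAAAA, which they were used to choose. The widest of them, 2385 bp on chromosome 5 (8769191 to 8771575), had its ACD21 summit 3590 bp upstream of AT5G25280, a gene for a serine-rich protein-like protein. At the site near MYB47, on chromosome 1 from 6454391 to 6456409, the authors' fold enrichment, used here only to describe sites within a list, was 8.44 and 7.93 in ACD21, and 27.7 and 34.8 in MBD6, with summits of MBD6 163 and 145 bp from that of ACD21 replicate 1. At SOS2, chromosome 5 from 13631851 to 13633748, it was 9.56 and 7.33 in ACD21, and 27.8 and 32.2 in MBD6, and the ACD21 summit lay 1619 bp upstream of the gene start. The others lay in the pseudogene AT3G29805, and upstream of AT1G23300 (a MATE efflux family transporter, 827 bp), AT2G40420 (an amino acid transporter, 508 bp), AT1G74088 (annotated as a galacturonosyltransferase, 653 bp) and Tudor2 (a TUDOR-SN protein, 1536 bp). All 8 were in both ACD15 lists and in replicate 1 of MBD6-RFP in acd15 acd21, and none was in its replicate 2.

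Over all ACD21 sites without MBD6, CCGCCAAAAA was in 131 of 1672 (7.83%), against 0.303% of genome windows. The 8 highest of these sites lay near genes of other kinds, and none of the 8 held the word. Lack of this word does not show that a site is free of repeats, since the windows of AT1G44760 and COL4 share other stretches. They lay upstream of AT1G44760 (4209 bp), COL4, AT1G55535 (157 bp) and RIE1, a RING-finger gene (140 bp), in the 5′ UTR of the actin gene ACT2, in a coding exon of AT4G16380, beyond the end of AT2G04650 and in an intron of AT1G54840. Fold enrichment in ACD21 was 9.34 and 7.49 at AT1G44760, 9.03 and 6.94 at ACT2 and 8.98 and 7.15 at COL4. All 8 lay where a peak number of MBD6 replicate 1 is missing, so their absence from MBD6 is not shown. COL4 and AT1G55535, 2 of the 8, were in replicate 1 of MBD6-RFP in acd15 acd21, and none was in its replicate 2. The AT1G54840 site, 2111 bp on chromosome 1 (20453893 to 20456003), was the only one of the 8 outside both ACD15 lists and the MBD5 and MBD6 list. It spans AT1G54840, annotated as an HSP20-like chaperone, a family with the alpha-crystallin fold, and also touches AT1G54850. The ACD21 symbol matched no gene of the annotation, so whether the reads at this site came from the transgene's own DNA was not tested.

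Of the 1672 ACD21 sites without MBD6, 425 (25.4%) had no missing number beside them in either MBD6 list. The highest of these, named after their values were seen, included sites 89 bp upstream of the beta-galactosidase gene BGAL8, with a fold enrichment of 6.91 and 4.87, and 3702 bp upstream of the transporter gene UMAMIT30, with 6.84 and 5.35. Another 3 lay in coding exons of AT1G25180, AT1G25025 and AT1G25112 on chromosome 1, where the 50 bases around the summit occur 7, 4 and 8 times in the genome, so these 3 share sequence. The 425 sites averaged 12.7 CG sites, and 34.1% of them were in promoters.

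CCGCCAAAAA was in 6 of 1983 MBD6 sites without ACD21 (0.303%), the same share as in windows of the genome (721 of 238291, 0.303%). It was found in none of the 1688 of these sites with no missing ACD21 number (95% exact upper limit 0.218%). Of the 8 highest, 5 held CCGCCAAAAA, with 4 to 13 copies: AT5G36010, AT3G44805, AT4G07060, AT5G35860 and AT4G26600. At AT5G36010, chromosome 5 from 14152930 to 14154587, fold enrichment in MBD6 was 27.7 and 30.9, and at AT3G44805, chromosome 3 from 16352939 to 16354644, it was 24.3 and 28.3. The other 3 lay in or beyond the pseudogenes AT1G36530, AT2G01037 and AT1G38140, with 8.25, 7.52 and 5.51 in MBD6 replicate 2. All 8 lay where a number of ACD21 replicate 2 is missing, and 7 where one of ACD21 replicate 1 is, although over the class 1688 of 1983 sites (85.1%) had no missing number in either ACD21 list. The absence of ACD21 from these 8 is therefore not shown.

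Among the 1688 sites without a missing ACD21 number, the 8 highest, also named after their values were seen, had a pseudogene as their nearest gene. Examples are AT2G12980, with a fold enrichment of 8.62 in MBD6 replicate 1 and 41 CG sites, and AT5G31496, with 6.04 in MBD6 replicate 2 and 36 CG sites. Both lay in bins with protein-coding exons in 4.20% and 1.72% of the bases. None of the 8 was in ACD15 replicate 1, while AT5G28140, AT4G06603, AT4G03800 and AT4G06752 were in ACD15 replicate 2. Of the 1688 sites 36.1% were in an ACD15 list. These 1688 sites kept the features of their class, with 66.6% in gene-poor bins and 46.8% in pseudogenes.

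Of 27444 protein-coding genes, 7.32% had an ACD21 region of both replicates between 1 kb upstream of the start and the gene end, 6.68% had an MBD6 region of either replicate, and 3.71% had both. Among 19 promoter-methylated and imprinted genes, 4 had ACD21, 3 had MBD6 and 1 had both. FWA, a homeobox gene kept silent by methylated promoter repeats, held ACD21 summits 18 and 3 bp upstream of its start, with fold enrichment of 2.69 and 2.21. No MBD6 region was listed there, and no MBD6 number is missing. ROS1, the DNA demethylase gene whose promoter methylation sets its own expression, held ACD21 summits 66 and 65 bp upstream, with 5.16 and 3.41. No MBD6 region was listed there, but a number of MBD6 replicate 1 is missing, so its absence is not shown. At HDG8, an imprinted homeobox gene, the ACD21 summits at 1098 bp upstream in both replicates and the MBD6 replicate 1 summit at 1062 bp were 36 bp apart. BNS was the 4th gene with ACD21. A number of MBD6 replicate 1 is missing at its ACD21 regions, so the absence of MBD6 from them is not shown. SNC1 and AGL36 held MBD6 replicate 1 alone.

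Of 30 DNA methylation and silencing genes, 3 had ACD21 in both replicates, 1 had MBD6, and none had both. The 3 were VIM3, a methylcytosine-binding maintenance factor, SUVH5, a histone methyltransferase, and NRPE1, the main catalytic subunit of Pol V, with ACD21 summits of replicate 1 at 615, 443 and 384 bp upstream. DCL3, a Dicer-like enzyme, held the MBD6 region beyond its end and an ACD21 region of replicate 1 alone 307 bp upstream. Of the 2 complex genes with a matched symbol, MBD5 held ACD21 in both replicates (fold enrichment 2.94 and 1.799) and MBD6 held neither protein. A number of MBD6 replicate 1 is missing at the ACD21 regions of VIM3, SUVH5 and MBD5, and none at those of NRPE1. Of 20 floral meristem and organ identity genes, TFL1, an inhibitor of flowering, held both, with ACD21 summits 689 and 703 bp and an MBD6 replicate 1 summit 919 bp upstream of its start. Against the shares over all genes, 4 of 19 is 21.1%, 3 of 30 is 10%, and no test was made on counts this small.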

How the data were processed

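Peak positions in 4 libraries were compared. The submitters' processing notes name the TAIR10 build and the tools MACS2 2.1.0, deepTools 3.0.2, Bowtie2, HOMER, Picard and Trim Galore, without order or settings. For each library the authors deposited 1 peak list, called on single libraries, with a score (10 times -log10 q), a fold enrichment as a ratio, and -log10 p and q values. The deposited MBD5 and MBD6 list (merged broad peaks, by its name) has 10534 nuclear regions. Depth is unknown, so intervals cover counting error over regions alone.

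Entries with the same start and end were joined into 1 region with its strongest summit. Starts were made 1-based. Overlap needed 1 bp on nuclear chromosomes, where no peak ended past a chromosome of the TAIR10.1 copy. Context was that of the region centre, in the order gene body, pseudogene, promoter, other. Library values were compared by exact permutation, and 8 results adjusted by the Benjamini-Hochberg method. Intervals are exact (Clopper-Pearson, 95%). Scripts used Python 3.11.15, numpy 2.4.6, scipy 1.17.1 and matplotlib 3.10.9, and were tested on simulated data. Named sites are the 8 with the highest mean score percentile in each of 3 classes, plus listed genes with a region. Members and lists were chosen with earlier results of these data known. The repeated word was chosen after sequences and results were seen: an earlier word was replaced, the condition of at least 50% G and C came after the ranking was seen, and 28 words are therefore reported as a range. RPP7, ACD15, ACD21 and SLN had no matched symbol. Nothing in the labels ties replicates to separate plants, and p-values measure the spread between libraries, technical or not. The same replicate numbers did not pair the samples (see the closing section), and the control libraries were not analysed here.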

Additional observations from a re-analysis of the deposited data

Results flagged for a closer look

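In 6 features, regions with the other protein differed from regions without it in opposite directions in the 2 groups, when a region of either replicate of the other protein counted. Each value is the mean difference, regions with minus regions without the other protein, in the 2 ACD21-FLAG libraries, minus the same mean in the 2 MBD6-RFP libraries. These contrasts between the groups were not tested, since the smallest p for 2 against 2 libraries is 0.333.

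GC content differed by 4.84 and 3.94 percentage points in ACD21 and by -6.62 and -4.66 in MBD6, a contrast of 10.0 (10.03). CG sites per 500 bp differed by 6.71 and 5.75 in ACD21 and by -1.45 and -2.25 in MBD6, a contrast of 8.08. The share in gene-poor bins differed by 7.10 and 2.18 points in ACD21 and by -39.9 and -40.0 in MBD6, a contrast of 44.6. The share in pseudogenes differed by 8.43 and 5.19 points in ACD21 and by -34.4 and -27.8 in MBD6, a contrast of 37.9. The share in promoters differed by -3.40 and -2.29 points in ACD21 and by 19.4 and 12.0 in MBD6, a contrast of -18.6. The share in gene bodies differed by -4.43 and -3.25 points in ACD21 and by 1.91 and 3.80 in MBD6, a contrast of -6.69.

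In 4 of the 6 features the opposite directions rest on MBD6 replicate 2. Against MBD6 replicate 1 alone the ACD21 differences were -0.404 and -1.11 points in GC, -2.42 and -2.16 in gene-poor bins, -4.15 and -4.44 in pseudogenes, and 2.30 and 3.68 in promoters, with the signs seen in MBD6. CG sites kept their sign, at 1.26 and 0.807. The gene body share turned for other pairs of lists: it differed by 0.339 points in ACD21 replicate 2 against MBD6 replicate 2, and by -3.73 in MBD6 replicate 1 against ACD21 replicate 2.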

How the results depend on the processing

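Of 132 recomputed values 4 reversed and 20 moved beyond the spread between replicates or by over 1.5 times; the other 108 did not, where for the differences between the groups this means only that the sign was kept. The cause was not tested unless stated. GC, CG, gene-poor, promoter and width differences kept their sign in every alternative run, but not their size. Requiring both replicates of the other protein left 2.96% of ACD21 and 41.5% of MBD6 regions, with a CG difference of 12.1. With the top 1000 regions of each list the shares were 60.65% and 38.4%, the zone difference 29.9 points, the classes 333 (ACD21 without MBD6) and 1211 sites (MBD6 without ACD21), and the gene body difference -0.5 points. Leaving out regions beside a missing peak number, chosen after seeing the data, gave 74.96% of ACD21 regions with MBD6, 66.0% of MBD6 regions with ACD21 and a CG difference of 7.79; it drops only regions without the other protein, so it can only raise the shares. That difference was 9.20 in 200 bp windows and 5.28 over whole regions. With nearest summits within 2 kb the distance difference was -229 bp, with summits counted that lie in no shared region.

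Leaving out 1 library gave 14.0% to 49.7% of ACD21 regions with MBD6 (14.0% without MBD6 replicate 1), 41.9% to 71.1% of MBD6 regions with ACD21 (41.9% without ACD21 replicate 1), a CG difference of 1.03 to 13.7, a Jaccard difference of -0.354 to 0.128, 1796 to 4167 ACD21 sites without MBD6 (4167 without ACD21 replicate 2, 2849 without MBD6 replicate 1) and 360 to 2835 MBD6 sites without ACD21 (360 without MBD6 replicate 1). Without MBD6 replicate 1 and without MBD6 replicate 2 the group differences were -10 and -282 bp in width, -12.5 and -4.11 points in GC and -13.7 and -2.26 CG sites. The summit distance difference was 4.38 to 23 bp and the gene body difference 0.672 to 3.53 points.

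With the replicate number as a block the differences were the same (CG -7.97, exact sign-flip permutation p = 0.5, the smallest possible), and 0 of 6 passed 0.05. Replicate differences of the 2 groups over 1193 bins correlated at -0.115, and with crossed pairing 0 of 6 passed.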
